A study of Mus musculus with 8 samples.

Results

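The 4 unstimulated (vehicle) libraries of a series of 8 were compared with each other: those that served as controls of a BMP4 experiment, from culture codes IP48 and IP54, and those that served as controls of a BMP6 experiment, from culture codes IP75 and IP77. They were chosen by their treatment label and the code in their column name, and not by any measured value. Every culture was made from muscle of wild-type female C57BL/6J mice aged 6 to 8 weeks, expanded for 2 days on Matrigel, a basement membrane gel, and then held for 6 h in serum-free medium with 200 ng/ml of the soluble receptor BMPR-IA/ALK3-Fc, which takes up free BMP. The vehicle cultures then received 4 mM HCl with 0.1% BSA for 1 h, while sister cultures of the same codes received 100 ng/ml BMP4 (IP48 and IP54) or BMP6 (IP75 and IP77). The labels count IP48 and IP54, and likewise IP75 and IP77, as biological replicates, so n = 2 in each group, and they do not say how many animals went into a culture. The groups carry the same vehicle label, so the comparison describes the state of the cultures and no treatment. The experiment and anything else in which the cultures of the 2 experiments differed cannot be told apart.

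Muscle stem cells (satellite cells) are marked by the transcription factor Pax7. When they are activated they proliferate as myoblasts that express Myf5 and Myod1. Myogenin (Myog) then accompanies exit from the cell cycle, which needs CDK inhibitors such as Cdkn1a and Cdkn1c, and it is followed by the membrane proteins that fuse myoblasts, Mymk and Mymx, and by the proteins of the contractile sarcomere. Notch signalling is known to hold the stem cell state, and removal of serum is a common way to bring on differentiation.

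Of 55223 loci in the joint table, 15100 had a mean of at least 1 TPM (a length-scaled share of transcripts) over the 4 vehicle libraries and were tested with limma on log2(TPM + 0.5). All differences below are log2 differences of the BMP6-experiment vehicles minus the BMP4-experiment vehicles, with the standard error (SE) and the Benjamini-Hochberg adjusted p, and a locus passed at an adjusted p under 0.05. Among the listed genes nearest to the limit, Wnt10b lay inside it with a mean of 1.02 TPM (1.24 and 0.717 TPM in IP48 and IP54, 1.07 and 1.07 TPM in IP75 and IP77). Mycn lay outside it with a mean of 0.995 TPM (1.84 and 0.815 TPM, 0.824 and 0.497 TPM).

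The unstimulated cultures differed widely between the experiments. Of the tested loci 3113 passed, which is 20.6% of all: 1082 were higher in the BMP6-experiment vehicles (7.17%) and 2031 were lower (13.5%). A log2 difference of 2 or more in size was reached by 464 of the lower and 102 of the higher loci. The split depended on the scaling: higher loci were 34.8% of the passing loci on TPM, 45.1% (1400 of 3102) on FPKM and 48.3% (1366 of 2826) after quantile normalization, and voom on estimated reads moved the median difference of all loci from -0.01 to 0.11. Groups without overlap were far more frequent than calls, at 75.1% of the tested loci (36.2% higher and 39% lower). Among the 10780 loci with a symbol that is no gene model, 691 passed as higher (6.41%) and 1747 as lower (16.2%). A principal component analysis put 85.6% of the variance on its leading axis, where IP75 and IP77 lay at 52.3 and 55.9, IP48 at -28.6 and IP54 at -79.7.

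**Figure D1:**
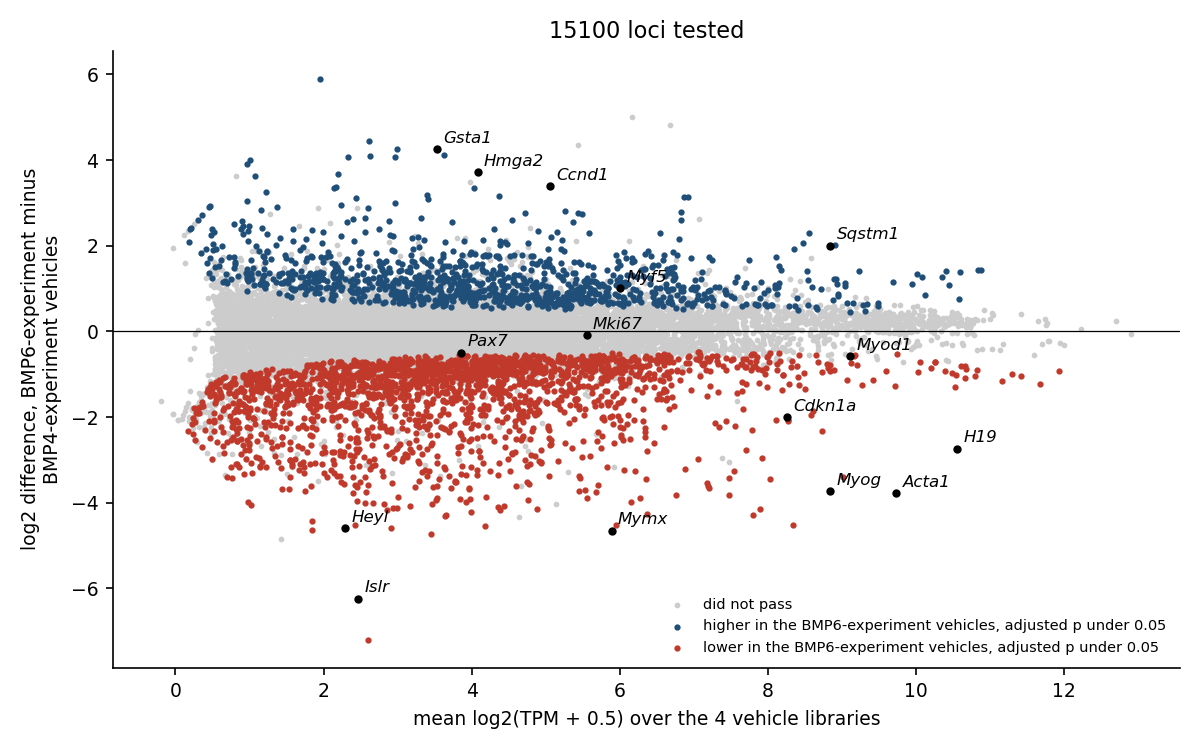
Each point is 1 of 15100 tested loci, with the mean log2(TPM + 0.5) over the 4 vehicle libraries on the x axis and the log2 difference of the BMP6-experiment minus the BMP4-experiment vehicles on the y axis. Blue points (1082) passed as higher, red points (2031) passed as lower, grey points did not pass, and black points mark named genes: Islr lies at -6.24 and Gsta1 at 4.26.

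IP48 stood between IP54 and the other culture pair. Of the 2031 lower loci, 1785 (87.9%) were higher in IP54 than in IP48, and of the 1082 higher loci, 949 (87.7%) were lower in IP54 than in IP48. Over all tested loci IP54 was above IP48 in 41.8%. The replicates of the BMP4 experiment differed by a standard deviation of 0.58 log2 over loci and those of the BMP6 experiment by 0.33. Leaving out IP75 or IP77 left 3 passing loci each (1 of them among the 3113 in each case), although all 3113 kept their direction, while leaving out IP48 gave 7150 and leaving out IP54 gave 2924 (2496 of them among the 3113). In such fits the lone library is assumed to vary like the pair that is left, and every call below rests on both IP75 and IP77. Counts of list members without IP48, given below, come from a fit in which far more of all loci passed. A rise in such a count is thus no result about the list.

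The libraries held an estimated 49974344 to 58002740 reads, and the mitochondrial share of TPM overlapped between the groups (2.33% and 2.78% against 2.06% and 2.29%). Coverage of the last 1000 nt of a transcript was also taken as a share of that of its first and last 1000 nt together. This was done for transcripts of at least 3000 nt and 4 exons at a coverage of at least 5. The median of this 3′ share moved with the groups, at 45.3% and 44.9% in IP48 and IP54 and 48.3% and 48.5% in IP75 and IP77. The part of these library measures in the results was not tested. Cell type markers were read in all 4 libraries to check the label. Of the immune markers, 8 of 16 were listed at 0 throughout, including the pan-leukocyte gene Ptprc, while 3 reached the limit. The summed level of the list was 20.2 to 24 TPM. The summed level of the 12 endothelial markers was 3 to 4.1 TPM. Of 16 fibro-adipogenic and fibroblast markers 10 stayed under the limit, among them the defining Pdgfra, Dcn and Lum, and 6 were tested, with values given beside the matrix genes. Pdgfra read between 0.193 and 0.329 TPM, Dcn between 0 and 0.357 TPM and Lum between 0 and 0.0641 TPM. Transcripts of Pax7, Myod1 and Myf5 were present in each library, as given next.

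Markers of the stem cell state did not all differ in 1 direction. Pax7 read 16.9 and 16.7 TPM in IP48 and IP54 and 12.4 and 11.1 TPM in IP75 and IP77 (chromosome 4, 139464373 to 139560839, GRCm39). The groups did not overlap, but the difference of -0.49 (SE 0.15) did not pass (limma adjusted p = 0.067). Myf5, the regulator of committed myoblasts, read 52.3 and 38.2 TPM against 94 and 86.4 TPM, and was higher in the BMP6-experiment vehicles by 1.00 (SE 0.19, limma adjusted p = 0.0332). Myod1, the determination factor, read 839 and 543 TPM against 422 and 481 TPM and did not pass (difference -0.58, SE 0.23, limma adjusted p = 0.122). IP48 held the highest Myod1 level of the 4 libraries, and IP54 lay nearer to IP75 and IP77.

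The list of satellite cell identity genes was mixed, with 4 of 25 tested members higher in the BMP6-experiment vehicles and 10 lower (8 and 11 without IP48), and a median difference of -0.49 beside -0.01 for all tested loci. Cd34, a surface sialomucin of quiescent and activated satellite cells, read 1.91 and 0.318 TPM against 12.4 and 15.6 TPM (difference 3.36, SE 0.52, limma adjusted p = 0.0245). The heparan sulfate proteoglycan Sdc4, at 8.65 and 4.69 TPM against 55.2 and 68.2 TPM, was higher by 3.17 (SE 0.30), and the G protein regulator Rgs2 by 2.15 (SE 0.31). In both the BMP6-experiment vehicles were the high ones, without overlap. The other direction was taken by the cadherin of myoblasts Cdh15, at 185 and 236 TPM against 43.1 and 45.4 TPM (difference -2.23, SE 0.17, limma adjusted p = 0.0144). Fgfr4, a fibroblast growth factor receptor, differed by -2.51 (SE 0.15), the laminin receptor subunit Itga7 by -0.72 (SE 0.16) and Spry1, an inhibitor of receptor tyrosine kinase signalling, by -1.57 (SE 0.37), all lower in the BMP6-experiment vehicles. Vcam1 read 24.3 and 12.9 TPM against 28.9 and 29.8 TPM and did not pass (limma adjusted p = 0.143). Calcr, a receptor of quiescent satellite cells, stayed under the limit with 0.0753 to 0.268 TPM in the 4 libraries.

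Many differentiation genes differed between the experiments. Myog (chromosome 1, 134217727 to 134220286) read 1301 and 2154 TPM in IP48 and IP54 and 109.6 and 143 TPM in IP75 and IP77. Its groups lay far apart, and the difference was -3.74 (SE 0.28, limma adjusted p = 0.0144). Of the myogenic regulatory and cofactor genes, 14 of 31 tested members passed as lower and 3 as higher in the BMP6-experiment vehicles (median -0.70). Besides Myog the lower ones included the TEAD family factor Tead4 (-2.46, SE 0.31) and the sarcoplasmic reticulum protein gene Srl (-3.59, SE 0.64). The higher ones were Myf5, the eyes-absent cofactor Eya1 (0.90, SE 0.18) and Hmga2, a chromatin protein of proliferating progenitors. Hmga2 read 6.57 and 2.58 TPM against 63.3 and 58.4 TPM (difference 3.71, SE 0.40, limma adjusted p = 0.0179).

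The genes of cell cycle exit and fusion were lower in the BMP6-experiment vehicles in 23 of 31 tested cases and higher in none, with a median of -2.67 over those tested and -2.47 over all 34 with a locus. Mymk, the first of the fusion proteins, read 284 and 963 TPM against 37.2 and 45.5 TPM (difference -3.65, SE 0.57). Mymx, its partner, read 186 and 471 TPM against 8.26 and 15.5 TPM (difference -4.65, SE 0.51). In both genes IP54 was the highest library and IP48 lay between it and the other pair. Of the CDK inhibitors, Cdkn1a read 466 and 801 TPM against 155 and 151 TPM (-2.0, SE 0.27), and Cdkn1c 49.9 and 156 TPM against 5.61 and 4.09 TPM (-4.07, SE 0.54). The retinoblastoma gene Rb1, which holds E2F factors in check, was also lower (-2.23, SE 0.40), and so was the ubiquitin ligase subunit Asb2 (-4.58, SE 0.54). Limma adjusted p values of these 6 genes lay between 0.0184 (Mymx) and 0.0305 (Rb1). Summed over the list, the level was 1839 and 4884 TPM in IP48 and IP54 against 522 and 585 TPM in IP75 and IP77. In bulk RNA, fewer differentiating cells and less of these messages per cell cannot be told apart.

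**Figure D2:**
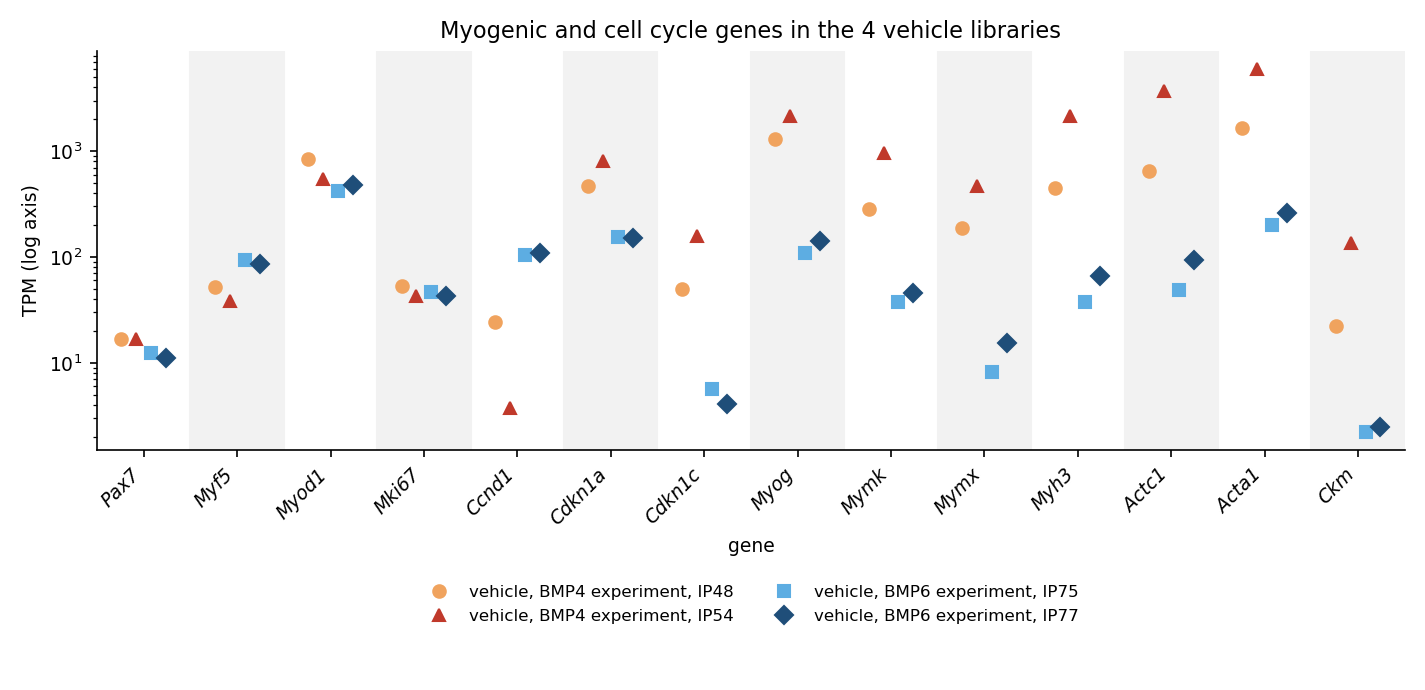
TPM on a log axis of 14 myogenic and cell cycle genes, with 1 point per vehicle library and no averaging. From Cdkn1a to Ckm the 2 libraries of the BMP4 experiment lie above both of the BMP6 experiment, Ccnd1 has the opposite order, and the points of Mki67 overlap at 42.8 to 53.3 TPM.

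Sarcomere genes showed the same direction in larger size. Of 55 tested members 42 were lower in the BMP6-experiment vehicles and none higher, the median was -3.20, and the summed level was 10257 and 33697 TPM in IP48 and IP54 against 2357 and 3039.5 TPM. The sum in IP54 was thus 12.5 times the mean of IP75 and IP77, and that in IP48 3.8 times. Skeletal alpha-actin Acta1 (chromosome 8, 124618508 to 124621490, GRCm39) read 1655 and 5977 TPM against 199 and 263 TPM (-3.78, SE 0.60, limma adjusted p = 0.0247). Cardiac alpha-actin Actc1, which embryonic and regenerating muscle also makes, read 650.2 and 3731 TPM against 48.3 and 92.9 TPM (-4.53, SE 0.85). Embryonic myosin Myh3, at a locus that also carries a microRNA gene, read 447 and 2163 TPM against 37.2 and 66 TPM (-4.30, SE 0.76). The myosin chaperone Unc45b differed by -4.54 (SE 0.65). In each of these 4 genes IP54 was highest, IP48 next, and the groups did not overlap. Actin and myosin genes are close paralogs, so reads may be shared among them. Perinatal myosin Myh8 was high in 1 library above all, with 33.5 TPM in IP48, 367 in IP54, 4.1 in IP75 and 6.27 in IP77, and its difference of -4.32 (SE 1.09) just missed the threshold (limma adjusted p = 0.05003).

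Excitation-contraction coupling and neuromuscular junction genes were lower in 16 of 29 tested cases (median -2.16, none higher), and in 27 without IP48. The calcium pump Atp2a1 read 149 and 539.9 TPM against 14.5 and 20.8 TPM (-3.99, SE 0.61), the voltage sensor subunit Cacna1s differed by -3.75 (SE 0.83), and the calcium-binding Hrc by -3.92 (SE 0.78). The Cacna1s call was lost with a pseudocount of 2, with no variance trend and with voom. Genes of muscle energy metabolism passed as lower in 7 of 16 cases (median -1.87), and in 15 without IP48. Creatine kinase Ckm, which buffers ATP in muscle fibres, read 22.4 and 135 TPM against 2.21 and 2.48 TPM (-4.29, SE 0.81, limma adjusted p = 0.0326). Both lists thus ran in the direction of the sarcomere genes, with IP54 above IP48 in 32 of 34 and in 19 of 19 members with a locus.

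Promoters of the contractile genes were read for short motifs in the 250 bases before the RefSeq start (GRCm38.p6, an older build than that of the TPM tables). A single promoter was listed for 7175 of the tested loci. The E box CAGCTG, a palindrome that MyoD and myogenin are known to bind, was held by 16.9% of the promoters of loci that passed as lower in the BMP6-experiment vehicles (179 of 1061), by 8.98% of those that passed as higher (43 of 479) and by 11.3% of all tested (12.7% of all 22862 single promoters in the table). In the sarcomere list it was held by 15 of 35 promoters. CACCTG, read on both strands, was held by 17.9%, 10.4% and 13.5% of the same sets in that order. The E2F-type motif TTCCCGC had the opposite order, with 5.94%, 10.4% and 7.41%, and the TATA-type motif TATAAA was at 7.35%, 12.7% and 6.54%. The cell cycle motif TTTGAA was at 9.52%, 12.1% and 10.6%, and CCAAT at 37.5%, 37.2% and 38%. The MEF2 motif was at 2.07%, 2.51% and 1.51%, and the SRF CArG box at 1.89%, 1.46% and 1.25%. In the sarcomere list the MEF2 motif was held by 9 of 35 promoters, the CArG box by 4, TATAAA by 9, CACCTG by 8 and TTCCCGC by none. These shares are counts of letters, not of bound sites.

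Promoters of 3 genes that passed as lower are shown because they hold the E box, printed in capitals, as are a CArG box, the SRF motif, and TATAAA in Acta1, and TATAAA (on the other strand) in Mybph. The first is chr8:123894776-123895025, minus strand, the second, of the myosin-binding protein gene Mybph, chr1:134193198-134193447, plus strand, and the third, of the leucine-rich repeat gene Islr, chr9:58158555-58158804, minus strand, each written 5′ to 3′ toward the start.
Acta1: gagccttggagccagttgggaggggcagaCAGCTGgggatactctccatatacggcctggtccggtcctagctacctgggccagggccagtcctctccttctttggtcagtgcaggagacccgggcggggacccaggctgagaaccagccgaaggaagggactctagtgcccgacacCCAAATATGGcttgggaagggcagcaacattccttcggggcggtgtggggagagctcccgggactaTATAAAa
Mybph: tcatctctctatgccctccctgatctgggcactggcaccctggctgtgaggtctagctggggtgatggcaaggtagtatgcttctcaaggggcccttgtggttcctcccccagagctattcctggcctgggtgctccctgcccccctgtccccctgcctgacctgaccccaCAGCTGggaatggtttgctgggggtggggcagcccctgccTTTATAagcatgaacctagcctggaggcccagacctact
Islr: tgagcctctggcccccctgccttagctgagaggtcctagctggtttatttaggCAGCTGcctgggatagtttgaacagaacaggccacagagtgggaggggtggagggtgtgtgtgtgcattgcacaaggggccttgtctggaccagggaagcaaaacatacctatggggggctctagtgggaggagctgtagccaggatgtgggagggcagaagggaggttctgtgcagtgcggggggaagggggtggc
Counted back from the base before the RefSeq start as -1, the E box lay at -221 to -216 in Acta1, -79 to -74 in Mybph and -197 to -192 in Islr. Mybph read 176 and 752 TPM in IP48 and IP54 against 14.2 and 23.7 TPM in IP75 and IP77 (-4.27, SE 0.70). Islr, a leucine-rich repeat protein known from mesenchymal cells, had the lowest difference of the 10 genes named by size, with 26.8 and 83.8 TPM against 0.139 and 0.134 TPM (-6.24, SE 0.53, limma adjusted p = 0.0152). Islr was thus near 0 in IP75 and IP77.

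Proliferation genes differed little beside these. Mki67, expressed by cycling cells, read 53.3 and 42.8 TPM against 47.2 and 43 TPM, with overlapping groups and a difference of -0.08 (SE 0.17, limma adjusted p = 0.722). Of 54 G2 and mitosis genes 1 passed, cyclin B2 (Ccnb2), which was lower in the BMP6-experiment vehicles (-0.65, SE 0.16), and the list median was 0.19 (-0.40 for IP54 minus IP48). The call of Ccnb2 was lost on FPKM, after quantile normalization, with voom, with no variance trend, with the replicate block and without IP54. Of 59 DNA replication genes 3 were higher, namely the licensing factor Cdt1 (1.68, SE 0.34), the replication clamp Pcna (0.88, SE 0.22) and the Cdt1-destroying ligase subunit Dtl (1.25, SE 0.20), and 1 was lower, the repressor E2f8 (-1.96, SE 0.32). The replication median was 0.45, and IP54 lay below IP48 in 58 of 59 members. The medians of both lists depended on which library of the BMP4 experiment was kept. The replication median was 0.73 without IP48 and 0.25 without IP54, and the G2 and mitosis median 0.39 and -0.00. Mki67 and the G2 genes were thus at similar levels in IP48, IP75 and IP77, with a lower list level in IP54 (1624 summed TPM against 1950 to 2105 in the others).

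Regulators of the G1 phase separated the experiments more. Cyclin D1 (Ccnd1), the mitogen-induced partner of CDK4 and CDK6, read 24.4 and 3.78 TPM in IP48 and IP54 and 105 and 109 TPM in IP75 and IP77 (3.39, SE 0.80, limma adjusted p = 0.0454). Cdk6 was higher in the BMP6-experiment vehicles as well (2.40, SE 0.59), and cyclin D3 (Ccnd3), which differentiating myoblasts are known to keep, was lower, at 195 and 184 TPM against 57 and 50.1 TPM (-1.81, SE 0.14). In the whole list of CDK inhibitors, D cyclins and pocket proteins, 11 of 24 were lower and 4 higher (median -0.54; 13 and 8 without IP48). Cdkn1b, a further CDK inhibitor, read 16.2 and 16.7 TPM against 17.3 and 20.6 TPM and did not pass (limma adjusted p = 0.38).

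**Figure D3:**
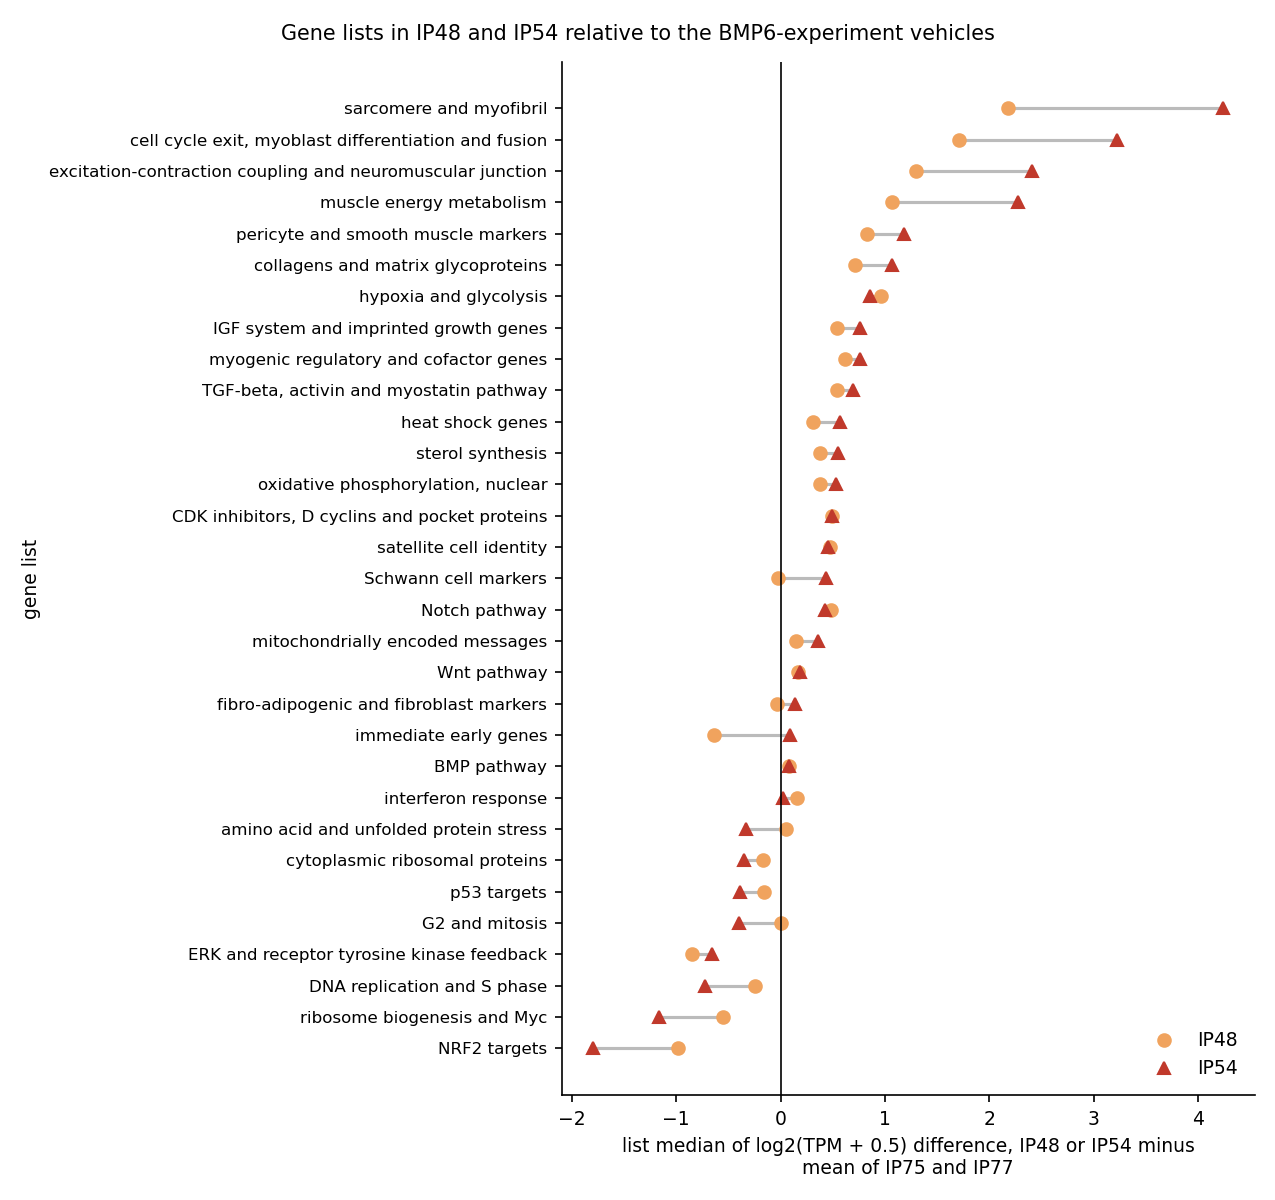
For each gene list with at least 6 tested members, the median over its members with a locus of the log2 difference of IP48 (circle) or IP54 (triangle) from the mean of IP75 and IP77 is on the x axis. The sarcomere list lies at 2.18 for IP48 and 4.24 for IP54, and the NRF2 target list, chosen after values were seen, at -0.98 and -1.80.

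Notch pathway genes passed as lower in the BMP6-experiment vehicles in 9 of 21 tested cases and as higher in none (10 and 2 without IP48), with a median of -0.65 over those tested and -0.45 over all 30 with a locus. Among the receptors, Notch3 read 41 and 55 TPM against 7.69 and 4.27 TPM (-2.94, SE 0.31), Notch1 differed by -1.52 (SE 0.18), and Notch2, at 12.3 to 16.1 TPM, did not pass. The ligand Dll1 read 52.2 and 40.4 TPM against 14.6 and 11.1 TPM (-1.82, SE 0.21), and the modifying enzyme Lfng differed by -1.26 (SE 0.23). Of the effectors, Heyl read 15.5 and 35.7 TPM against 0.477 and 0.508 TPM (-4.60, SE 0.40, limma adjusted p = 0.0152), and Hey1 14.3 and 13.8 TPM against 1.94 and 1.25 TPM (-2.81, SE 0.22). Hes1 read 14.2 and 11.4 TPM against 6.04 and 12.5 TPM and did not pass (difference -0.52, SE 0.35, limma adjusted p = 0.305). Heyl and Hey1 were thus under 2 TPM in IP75 and IP77, while the Hes1 values overlapped between the groups.

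BMP pathway genes had a median of -0.17 over those tested and -0.09 over all 41 with a locus, with 9 of 28 tested members lower and 1 higher in the BMP6-experiment vehicles, and 10 lower and 8 higher without IP48. Id1, an immediate target of BMP receptors, read 149 and 100.0 TPM against 103 and 117 TPM and did not pass (difference -0.15, SE 0.22, limma adjusted p = 0.618). The antagonist Chrd (-2.98, SE 0.46), the activin and BMP binder Fst (-2.13, SE 0.31) and the co-receptor Hjv (-4.21, SE 0.64), which differentiating muscle makes, were lower. Hjv read 34 and 136 TPM against 2.86 and 3.58 TPM. The antagonist Grem1 was the higher one, at 0.509 and 0.259 TPM against 2.24 and 6.79 TPM (2.35, SE 0.51). The tested receptors Bmpr1a, Bmpr2, Acvr1 and Acvr2a did not pass (limma adjusted p = 0.156, 0.146, 0.911 and 0.756 in that order).

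In the TGF-beta, activin and myostatin list 9 of 27 tested members were lower and 1 higher (median -0.70 over those tested and -0.40 over all 31), and 16 lower and 5 higher without IP48. The ligand Tgfb3 read 21.2 and 69.7 TPM against 2.7 and 3.46 TPM (-3.45, SE 0.56), and the repressor Tgif1 was higher in the BMP6-experiment vehicles (1.61, SE 0.36). The list also holds Acta2, Tagln and Cnn1, which stand in the pericyte and smooth muscle list below as well. Acta2 and Tagln were among the lower ones. Wnt pathway genes passed as lower in 6 of 21 cases and as higher in none, while 29 more members were under the limit (median -0.58 over those tested and -0.15 over all 50; 9 lower and 1 higher without IP48, 4 lower without IP54), among them the receptor Fzd2 (-2.90, SE 0.21) and the ligand Wnt9a (-2.38, SE 0.24). Imprinted and IGF genes were lower in 10 and higher in 1 of 25 (median -0.89; 16 lower and 2 higher without IP48). Igf2, an autocrine growth factor of differentiating myoblasts, read 260.3 and 938 TPM against 42.8 and 40.7 TPM (-3.55, SE 0.59, limma adjusted p = 0.0261). H19, the noncoding RNA made from the other allele of that imprinted region, read 3024 and 4964 TPM against 680.4 and 495 TPM (-2.74, SE 0.28), and the paternally expressed Mest 156 and 555 TPM against 15.5 and 9.88 TPM (-4.52, SE 0.62). Igf2 and H19, on chromosome 7, were thus low together in IP75 and IP77, although their loci each carry a further gene name.

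Matrix genes were lower in the BMP6-experiment vehicles in 22 of 42 tested cases and higher in 1 (median -1.23 over those tested and -0.88 over all 50). The collagen VI chain Col6a1 read 32.7 and 94.9 TPM against 1.52 and 1.7 TPM (-4.74, SE 0.50, limma adjusted p = 0.0173), and the collagen I chain Col1a1 13.8 and 70.2 TPM against 0.946 and 1.82 TPM (-4.12, SE 0.77). Markers of other cell types moved along in part. The 6 tested of 11 members of the pericyte and smooth muscle list were lower, among them Acta2 at 719 and 1395 TPM against 52.5 and 59.3 TPM, Tagln (-3.38, SE 0.35) and the receptor Pdgfrb at 4.07 and 10.4 TPM against 0.294 and 0.266 TPM. The list summed to 834.1 and 1608 TPM in IP48 and IP54 and 79.5 and 88.6 TPM in IP75 and IP77, mostly Acta2, which differentiating myoblasts are known to express and which shares sequence with Acta1 and Actc1. The pericyte genes Rgs5 and Kcnj8 were at 0 to 0.294 and 0 to 0.0822 TPM. Fibroblast markers that passed were Gsn (-1.99, SE 0.19), Col1a1 and Col3a1 (-1.89, SE 0.26), lower, and Cxcl12 (1.76, SE 0.41), higher. That list summed to 207.7 and 331.2 TPM against 110.1 and 107 TPM. Of 2 tested tendon markers, with 5 more under the limit, the proteoglycan Fmod was lower (-3.17, SE 0.38). Of 6 tested Schwann cell markers 1 was lower (16.7%, near the 13.5% of all tested loci). This was the neuregulin receptor Erbb3, which myogenic cells also express (-3.38, SE 0.49). Of the endothelial, immune and adipocyte markers 1, 3 and 1 were tested and none passed in limma (1 adipocyte marker at an unadjusted p under 0.05), and no erythroid gene reached the limit. The part of other cells in the matrix result was not tested.

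Genes of hypoxia and glycolysis were lower in the BMP6-experiment vehicles in 21 of 35 cases and higher in none, with a median of -0.87 (23 lower and 5 higher without IP48). The lactate exporter Slc16a3 read 92.4 and 112 TPM against 12.5 and 11.5 TPM (-3.03, SE 0.16, limma adjusted p = 0.0115). Carbonic anhydrase Car9, a standard readout of low oxygen, read 4.28 and 5.21 TPM against 0.472 and 0.301 TPM (-2.57, SE 0.25), and the mitophagy receptor Bnip3 157 and 212 TPM against 35.1 and 35.3 TPM (-2.36, SE 0.18). In these 3 genes IP48 lay close to IP54. The list median of IP54 minus IP48 was -0.03, beside 1.85 for the sarcomere list. Oxidative phosphorylation genes of the nucleus passed as lower in 11 of 35 and as higher in none (median -0.45; 24 lower without IP48), and of 9 tested mitochondrially encoded messages none passed, with 3 at an unadjusted p under 0.05 in limma. Sterol synthesis genes passed as lower in 4 of 28 (14.3%; 1 without IP54), near the 13.5% of all tested loci. IP77 lay below IP75 in all 28 members, the list summed to 2636 and 2842 TPM in IP48 and IP54 against 2554 and 1659 TPM in IP75 and IP77, and its median of -0.45 was -0.81 without IP75 and -0.10 without IP77. The regulator Srebf1, at 47.2 and 66 TPM against 27.8 and 26.6 TPM, was among the lower ones (-1.03, SE 0.20).

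On the other side, genes of ribosome biogenesis and Myc were higher in the BMP6-experiment vehicles in 10 of 29 tested cases and lower in none (median 0.94; 26 higher and 1 lower without IP48, 17 higher without IP54). Myc itself, the growth regulator, read 38.7 and 44.8 TPM against 169.8 and 248 TPM (2.29, SE 0.22, limma adjusted p = 0.0164). The polyamine enzyme Odc1 read 168 and 135 TPM against 402 and 627 TPM (1.74, SE 0.25), and the pseudouridine synthase Dkc1 differed by 1.73 (SE 0.37). In all 3 genes IP75 and IP77 were the high libraries. Ribosomal protein genes had a median of 0.26 and none of 45 passed in limma, with 8 at an unadjusted p under 0.05 and 26 passing as higher without IP48 (1 without IP54).

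The 10 genes with the highest difference were Gsta1, Wincr1, Gsta5, Gsta2, Hmga2, Ccnd1, Cd34, Fosl1, Eps8 and Kcnn4. These and the 10 lowest genes below were taken among passing loci of 1 gene name at a mean of at least 5 TPM. Gene models and loci with overlapping groups were left out of that choice. The glutathione transferase Gsta1 read 4.2 and 0.995 TPM in IP48 and IP54 against 73.2 and 34.7 TPM in IP75 and IP77 (4.26, SE 0.63, limma adjusted p = 0.0235). Gsta1, Gsta2 and Gsta5 are neighbours and near-identical copies on chromosome 9, so their reads cannot be assigned with confidence; Gsta2 differed by 4.07 and Gsta5 by 4.10. The long noncoding RNA Wincr1 differed by 4.26 (SE 0.66), the actin regulator Eps8 by 3.34 (SE 0.49) and the potassium channel Kcnn4 by 3.19 (SE 0.60). The 10 with the lowest difference were Islr, Col6a1, Mymx, Adora1, Heyl, Asb2, Unc45b, Actc1, Mest and Tnfrsf13c, of which the adenosine receptor Adora1 read 9.42 and 32 TPM against 0.173 and 0.266 TPM.

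Gsta1 and Gsta2 are targets of NRF2, the factor that answers oxidative and electrophilic stress, and a list of NRF2 targets was drawn up after these values were seen. Of its 24 members, all tested, 12 passed as higher and none as lower, with a median of 1.40, but the choice of the list allows no test. Heme oxygenase Hmox1 read 247 and 122 TPM against 893 and 588 TPM, the autophagy receptor Sqstm1 270.5 and 193 TPM against 990.0 and 851 TPM, and sulfiredoxin Srxn1 24.2 and 11.7 TPM against 127 and 106 TPM. Other listed members did not pass: the cystine carrier Slc7a11 read 57.2 and 63.2 TPM against 63.9 and 46.5 TPM (limma adjusted p = 0.606). IP77 lay below IP75 in all 24 members. Of 4 metal response genes, also looked up afterwards, the metallothioneins Mt1 and Mt2, which bind zinc and copper, and the zinc exporter Slc30a1 passed as higher and Mt3 did not, Mt1 at 187 and 148 TPM against 688 and 591 TPM and Mt2 at 194 and 148 TPM against 845 and 816 TPM.
The Srxn1 promoter (chr2:152105274-152105523, plus strand, GRCm38.p6, RefSeq) is shown because it holds the AP-1 motif TGACTCA, here as its reverse complement TGAGTCA in capitals, at -102 to -96 and at -45 to -39. The binding site of NRF2 is known to hold a related core. This motif was added after the values were seen.
Srxn1: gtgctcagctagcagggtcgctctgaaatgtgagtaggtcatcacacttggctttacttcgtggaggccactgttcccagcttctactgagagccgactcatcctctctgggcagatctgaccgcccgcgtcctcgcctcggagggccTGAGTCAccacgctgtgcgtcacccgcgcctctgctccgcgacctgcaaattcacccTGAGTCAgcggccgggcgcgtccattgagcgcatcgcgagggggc
TGACTCA was held by 4.59% of the promoters of higher loci (22 of 479), 2.54% of those of lower loci (27 of 1061), 2.72% of all tested and 4.47% of all single promoters.

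**Figure D4:**
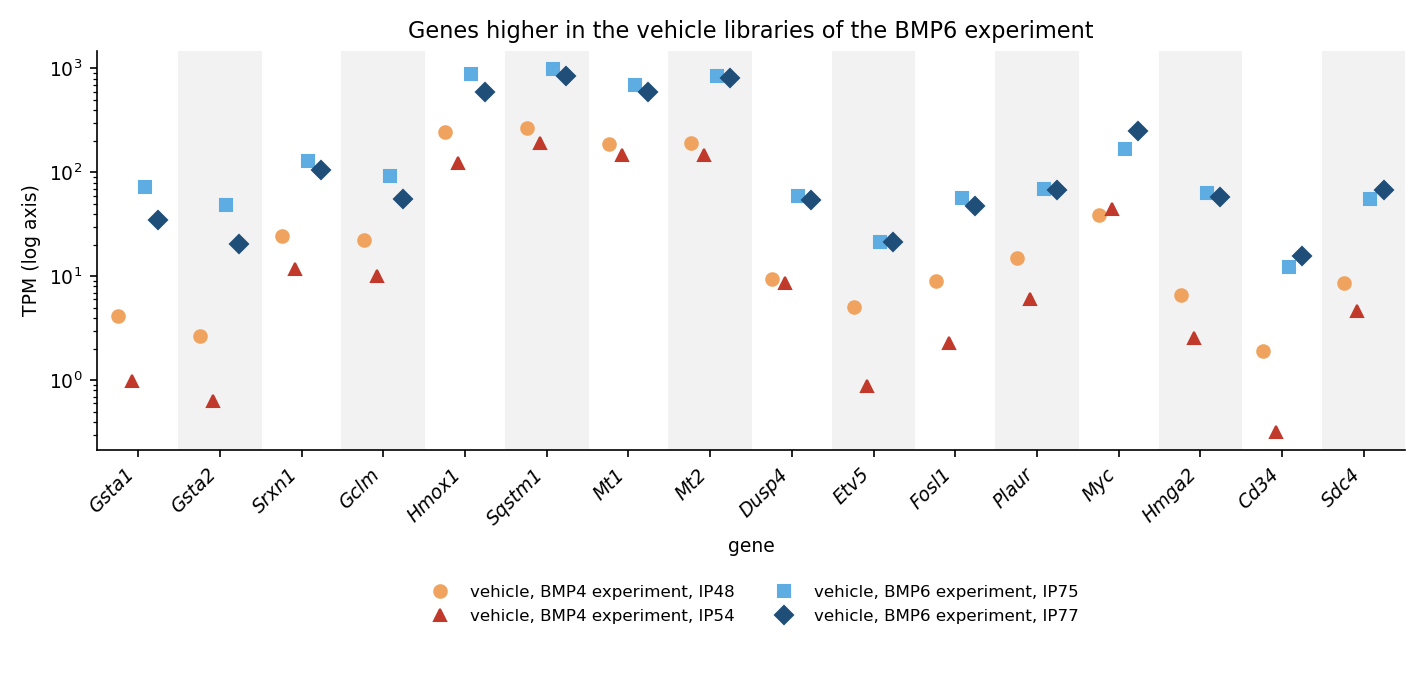
TPM on a log axis of 16 genes picked after their values were seen as higher in the BMP6-experiment vehicles, with 1 point per vehicle library. IP75 and IP77 lie above IP48 and IP54 in each gene, and IP54 is the lowest library in all of them but Myc.

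Immediate early genes split, as 9 of 35 tested members were higher in the BMP6-experiment vehicles and 3 lower (median 0.32; 12 and 12 without IP48, 17 and 3 without IP54). Fosl1, an AP-1 subunit that responds to ERK signalling, read 9.04 and 2.26 TPM against 56.8 and 47.6 TPM (3.35, SE 0.58, limma adjusted p = 0.0281). Dusp4, a phosphatase that turns ERK off, read 9.44 and 8.58 TPM against 59.5 and 54.1 TPM (2.59, SE 0.15). In both, the pair of the BMP6 experiment was high and close together. The kinase Sik1 was lower (-2.78, SE 0.26), and so was Jund (-1.33, SE 0.19). In a list of ERK feedback genes drawn up after the values were seen, 9 of 21 tested members were higher, such as the ETS factor Etv5 at 5.08 and 0.875 TPM against 21.7 and 21.6 TPM and the urokinase receptor Plaur at 15.1 and 6.01 TPM against 69.2 and 67.5 TPM, while Spry1 was lower. Dusp6 read 1.38 and 3.08 TPM against 4.98 and 10.2 TPM and did not pass (limma adjusted p = 0.0638).

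Other stress lists held passing genes in both directions. Of the amino acid and unfolded protein stress genes 1 was higher, the transcription factor Ddit3 (2.56, SE 0.52), and 5 of 35 lower, among them the hormone Fgf21 (-2.31, SE 0.14) and the factor Xbp1 (-1.39, SE 0.21). These are 17.1% of the tested members, beside 20.6% of all loci. Their median was -0.02, and without IP48 12 passed as lower and 17 as higher (6 and 5 without IP54). Of the p53 targets 3 of 25 were higher, Bbc3 (1.27), Plk2 (1.21) and Plk3 (1.49), and Cdkn1a and Btg2 were lower. These are 5 of 25 in all, a share near the 20.6% of all loci. The Btg2 call was lost with a pseudocount of 2, with no variance trend, after median-ratio scaling, after quantile normalization and with voom. Of 22 heat shock genes the chaperones Hspe1 (0.88) and Hsp90aa1 (0.63) were higher, and the small heat shock proteins Hspb1, Hspb2, Hspb3 and Hspb8 and the cochaperone Bag3 were lower (3 higher and 10 lower without IP48). The other 15 did not pass. Hspb3, a muscle member of that family, differed by -4.08 (SE 0.68). Of 8 tested interferon genes (19 more were under the limit) 3 were lower and B2m was higher (0.62, SE 0.13), and Ifi27 (-1.02, SE 0.15) was among the lower ones. The B2m call was lost with no variance trend and with the replicate block.

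The libraries of 1 group differed as well. IP54 was at least 1 log2 above IP48 in 609 tested loci (4.03%) and at least 1 log2 below it in 375 (2.48%), where IP77 and IP75 differed by as much in 74 (0.49%) and 90 (0.596%). The immediate early genes Egr1 and Fos had the widest differences among named genes at a mean of at least 5 TPM. Egr1 read 3.89 TPM in IP48, 211 in IP54, 1.64 in IP75 and 5.22 in IP77. Fos read 3.85, 74.1, 2.91 and 3.26 TPM in the same order, so that IP54 alone was high in both. The muscle genes Casq1, Myh8 and Tcap followed, with 40.4 TPM of the calcium buffer Casq1 in IP54 against 2.92 in IP48. Csf1, a macrophage growth factor, was 133 TPM in IP48 and 21.2 in IP54, beside 323 and 340.0 in IP75 and IP77, and Ccnd1 and the pseudokinase Trib3 were also lower in IP54. Between IP75 and IP77 differences were wide for the neuropeptide Gal, at 138 and 19.2 TPM, and, in the other direction, for the receptor tyrosine kinase Ret, at 3.39 and 10.2 TPM.

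The sister cultures that received BMP4 or BMP6 share no library with this comparison. They came from the same codes and are thus no further replicates of the experiments, and their contrast also holds the difference between the ligands. On the same 15100 loci the BMP6 minus BMP4 libraries gave 121 passing loci (0.801% of those tested), 22 higher and 99 lower, with 5459 at an unadjusted p under 0.05. Of them 114 had also passed with the same sign between the vehicles, which is 94.2% of the sister calls and 3.66% of the vehicle calls. These calls were fragile: none passed without BMP6 replicate 1 (IP75), with a pseudocount of 2 or after median-ratio scaling, 1 passed without BMP6 replicate 2 (IP77), and 6192 and 1108 passed without BMP4 replicate 1 (IP48) and 2 (IP54). With the replicate number as a block 603 passed. All 109 of the named genes that had passed between the vehicles had the same sign between the sister cultures (as had 3097 of all 3113 passing loci, and 13544 of all 15100 tested), and 96 of them lay within 0.5 log2 of the vehicle difference. Myog differed by -3.49 and Acta1 by -3.46 between the sister cultures, beside -3.74 and -3.78 between the vehicles. Named genes with less alike differences were Adora1 (-2.95 beside -4.64), Tgif1 (0.34 beside 1.61), Sdc4 (1.85 beside 3.17) and Dusp4 (1.61 beside 2.59). The sarcomere median was -3.20 and that of the replication genes 0.49 between the sister cultures, beside -3.20 and 0.45 between the vehicles. List medians were not all alike. That of the immediate early genes was -0.005 between the sister cultures beside 0.32 between the vehicles. That of the ERK feedback genes was 0.50 beside 1.18.

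**Figure D5:**
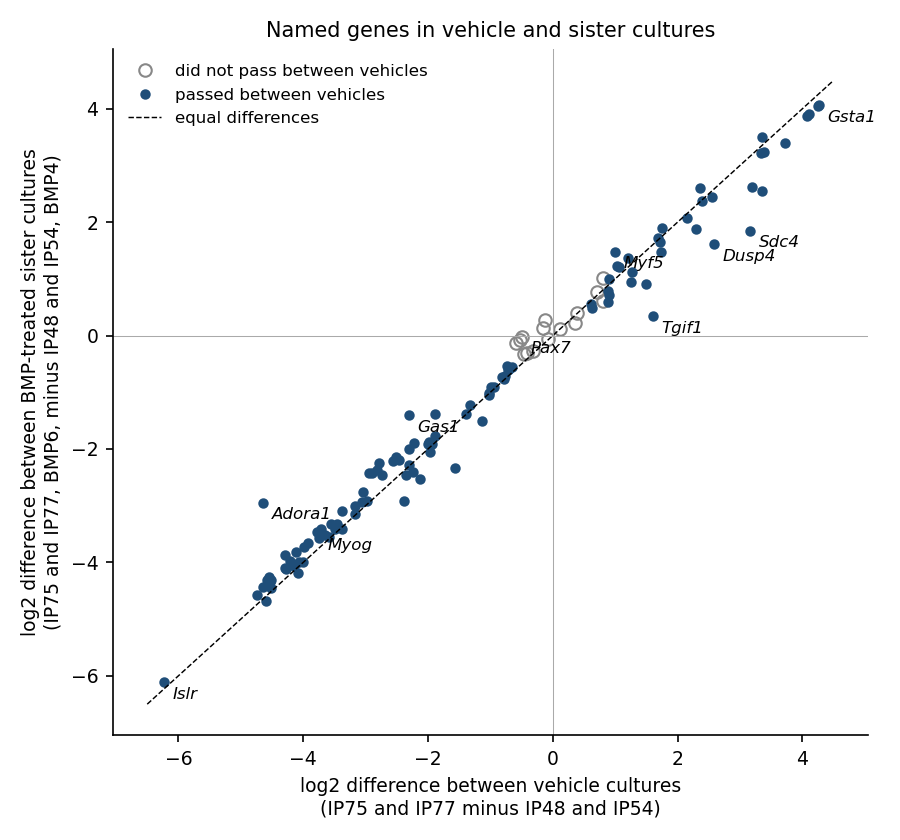
For 124 named genes, the log2 difference between the vehicle cultures (x axis) is set against that between their BMP-treated sister cultures (y axis), both as IP75 and IP77 minus IP48 and IP54. Filled points (109) passed between the vehicles, and Islr lies at -6.24 and -6.11 while Tgif1 lies at 1.61 and 0.34.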

How the data were processed

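RNA-seq values of 8 libraries were used, 4 of them vehicle libraries. Per the labels' protocols the cells were muscle stem cells in culture, and per the submitters' processing notes reads were handled with STAR 2.7.11a, SAMtools 1.17 and StringTie 2.2.1 on GRCm39. Per the file headers StringTie was run for annotated transcripts without correction for multi-mapped reads and without a strand option, so near-identical copies and overlapping antisense genes cannot be told apart. The authors deposited a joint TPM table, per-library tables with TPM, FPKM and coverage per gene, and transcript files. The TPM of the joint table matched the per-library tables in all 55223 loci (tolerance 1e-05). Coverage as deposited was used, with a read length of 50 nt, to estimate reads for voom and depth. No column belonged to other samples. Of the loci, 1210 carry more than 1 gene name and 33 have damaged chromosome text.

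The vehicle groups were compared with limma 3.58.1 in R 4.3.3 on log2(TPM + 0.5), with a variance trend, for loci that averaged 1 TPM or more in the vehicle libraries, and Benjamini-Hochberg adjustment at 0.05 over all 15100 (residual df 2, prior df 3.126). A fold change on this scale understates that of low genes. The fit was tested on simulated data. Where nothing says that cultures came from separate animals, p-values measure the spread between these cultures. Replicates differed beyond sampling noise: the chi-square per locus was 216 in the BMP4 experiment and 34.2 in the BMP6 experiment. Alternatives changed the pseudocount, filter, scaling, variance model, libraries and block.

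Gene lists (35 with 998 genes, 20 without a locus, and 3 added later) and the groups compared were chosen with earlier results of these data known, and the added lists after the values here were seen. Some genes, such as Cdkn1a, Cdkn1c, Srl and Acta2, stand in several lists, so the list counts are not independent of each other. Named genes were a fixed set of regulators, up to 3 passing members of a list in each direction, the 10 passing loci with the largest difference each way, and the 5 with the largest difference within a group each way. Genes named beyond that were chosen after their values were seen: Cdkn1b, Notch2, Bmpr1a, Bmpr2, Acvr1, Acvr2a, Slc7a11, Etv5, Plaur, Dusp6, Hmox1, Sqstm1, Srxn1, Mt1, Mt2, Slc30a1, Mt3, Notch1, Dll1, Lfng, Ccnd3, Hspb1, Bag3, Wnt10b, Mycn and the markers Ptprc, Pdgfra, Dcn, Lum, Rgs5 and Kcnj8.

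Promoter sequences are RefSeq's for GRCm38.p6, 250 bases before the start, and served for letters only, since the files use GRCm39. Python 3.11.15 with pandas 2.3.3, numpy 2.4.6 and matplotlib 3.10.9 made tables and plots.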

Additional observations from a re-analysis of the deposited data

How the results depend on the processing

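The 3113 passing loci (1082 higher, 2031 lower in the BMP6-experiment vehicles) became 1 (0 higher, 1 lower; 8120 at an unadjusted p under 0.05 in limma) with no filter on low values. They became 5132 with the culture code as a random block over all 8 libraries (2202 higher). The higher loci became 1764 in a fit of 8 libraries with 4 group means, and 574 where only loci of 1 gene name that are no gene models were tested. Leaving out a library gave 3 to 7150 passing loci, 0 to 3636 higher and 2 to 3514 lower. The cause was not tested beyond the number of loci and libraries in each fit. The sister cultures' 121 became 0 with a pseudocount of 2, 0 after median-ratio scaling, and 0 to 6192 without 1 library, where 5459 loci had an unadjusted p under 0.05 in limma with all 4 libraries.

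The replicate number as a block gave 2558 passing loci (893 higher, 1665 lower) between the vehicles and 603, added after seeing the data, between the sister cultures. Deviations of same-numbered vehicle libraries from their group means were not correlated over loci (correlation -0.0108). With n = 2 in each group, this cannot decide whether libraries of the same number share a factor. Of 124 named genes 109 passed, and 15 did not. None of the 109 kept its call without a filter or without IP75 or IP77. Calls lost under other settings numbered 18 with no variance trend, 14 with voom, 11 with the block, 9 with quantile normalization, 9 without IP54, 6 on FPKM and 5 with a pseudocount of 2, and no named gene changed direction past its threshold. Further calls were lost with the filter of 0.5 TPM over all 8 libraries (4). With median-ratio scaling, 4 group means, the culture code block and loci of 1 gene name, 3 were lost each. Adora1 was among those lost with the culture code block. In these settings calls gained numbered 4 with 4 group means, 2 with that block and 1 with median-ratio scaling. The G2 and mitosis median was -0.00 without IP54, and the median of the amino acid and unfolded protein stress genes was 0.06 after quantile normalization and 0.39 without IP48.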
